A study of Mus musculus with 22 samples.

Results

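The mRNAs of 9 enzymes and enzyme subunits of the citric acid cycle were followed across the 22 brown adipose tissue (BAT) libraries of a study of the RNA-binding protein CPEB2. The genes were *Cs*, *Idh2*, *Idh3a*, *Idh3b*, *Ogdh*, *Dlst*, *Suclg1*, *Fh1* and *Mdh2*, taken by symbol from the 55487 gene identifiers of the count tables. All 9 passed the filter on low counts, among the 17869 genes tested in the untreated mice and the 18899 tested in the mice that received virus.

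The citric acid cycle runs in the mitochondrial matrix, where it oxidizes acetyl-CoA from fatty acids and pyruvate to carbon dioxide and hands the electrons to the respiratory chain as NADH and FADH2. Brown adipocytes are packed with mitochondria, and their thermogenesis dissipates the proton gradient through UCP1, so heat output draws on fuel oxidation by this pathway. Its enzymes are encoded in the nucleus and imported, and several of them work as multi-subunit complexes whose parts come from separate genes.

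One cohort was untreated, with 5 CPEB2-WT and 5 CPEB2-KO mice collected at 21 to 25 weeks of age after a brief period without food. The other received recombinant adeno-associated virus (AAV) into the interscapular BAT at 16 weeks of age, 20000000000 vector genomes in 30 µl, and was collected 9 weeks later at 25 weeks. It held 12 mice, 3 for each combination of genotype (WT or KO) with cargo (AAV-GFP or AAV-PRDM16). PRDM16 is a transcriptional regulator that maintains brown fat identity, and GFP served as the control cargo. The knockout was global and in a C57BL/6 background, so the KO animals were survivors that lacked CPEB2 in every tissue, and all mice ate a chow with 9% fat. The virus carried a flag-tagged PRDM16 coding region, so *Prdm16* counts mixed viral with endogenous transcript. The labels describe every mouse as male.

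The libraries held 55320927 to 162721202 counts, and each of the 9 genes had at least 18225 counts in every library, so counting error was small beside the differences between mice. *Cpeb2* stood at 10.47 to 13.96 CPM (counts scaled to a common library size) in the 6 WT libraries of the AAV cohort and at 4.33 to 5.55 CPM in the 6 KO libraries. In the untreated cohort the library labelled KO 1 had 11.7 CPM of *Cpeb2*, within the 7.70 to 14.3 CPM of the WT libraries, and the other 4 libraries labelled KO had 2.11 to 5.78 CPM. Transcripts of the Y chromosome were at or near 0 in 2 untreated libraries labelled WT and 4 labelled KO, against the male label, and were present in all 12 AAV libraries. The same untreated libraries held 104 to 305 CPM of *Xist*, a transcript of female tissue, so they read as female. Untreated WT 4 held both, with 116 CPM of Y-linked transcripts and 14.0 CPM of *Xist*. No other library with Y-linked transcripts had more than 1.65 CPM of *Xist*. *Ucp1*, the defining brown fat gene, was high in all 22 libraries, from 1184 to 6700 CPM. The 14 markers of mature skeletal muscle summed to 9.85 to 7948 CPM in the untreated libraries, and to at most 110.8 CPM in the AAV libraries, where KO + AAV-GFP mouse 1 held the maximum.

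On the GRCm38 build (GENCODE M21) the 9 genes lie on 9 different chromosomes. *Cs* (ENSMUSG00000005683) is at chr10:128337734-128362479 on the plus strand, *Idh2* (ENSMUSG00000030541) at chr7:80094846-80115392 on the minus strand, and *Idh3a* (ENSMUSG00000032279) at chr9:54586334-54604661 on the plus strand. *Idh3b* (ENSMUSG00000027406) is at chr2:130279309-130284547 on the minus strand, *Ogdh* (ENSMUSG00000020456) at chr11:6291633-6356642 and *Dlst* (ENSMUSG00000004789) at chr12:85110833-85134845, both on the plus strand. *Suclg1* (ENSMUSG00000052738) is at chr6:73248382-73276911 on the plus strand, *Fh1* (ENSMUSG00000026526) at chr1:175600374-175625635 on the minus strand, and *Mdh2* (ENSMUSG00000019179) at chr5:135778480-135790398 on the plus strand.

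Short stretches of 5′ and 3′ sequence are shown first, because the study concerns a factor that binds mRNA 3′ ends and another that acts on transcription. The windows were the RefSeq promoter windows of the GRCm38.p6 build, from 250 bases before to 50 bases after each start, and they matched 8 of the 9 genes, all but *Idh3a*. They were searched on both strands for AAGGTCA (bound by estrogen-related receptors), CCGGAAG (ETS family factors), GCATGCGC (nuclear respiratory factor 1) and CTCGCGAG, none of which overlapped another in these windows. The motif CTCGCGAG was added after the *Mdh2* window had been seen. In the lines that follow, the capitals mark the match, which reads as its reverse complement where the motif lies on the other strand.
Idh3b ETS, chr2:130284440-130284466, minus strand: accgcgctcgCTTCCGGcgtcacttcc
Dlst ETS, chr12:85110824-85110850, plus strand: gccggtctcaCTTCCGGttgctgccgg
Ogdh ERR, chr11:6292155-6292181, plus strand: gacacggcgcTGACCTTggtgcctgcg
Ogdh NRF1, chr11:6292533-6292560, plus strand: taggtgttgtGCGCATGCgtaactcaac
Mdh2 first, chr5:135778450-135778477, plus strand: ccgggcctctCTCGCGAGatctcggaag
Mdh2 second, chr5:135778577-135778604, plus strand: ccgagcctgtCTCGCGAGatttggctca
Mdh2 last, chr5:135778611-135778638, plus strand: ttgcgcttctCTCGCGAGatcaggtggc

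The ETS letters occurred in the windows of *Idh3b* and *Dlst*, starting 5 bases before the RefSeq start of *Idh3b* and 1 base after the first base of *Dlst*, and 8.858% of the 32851 promoter windows of all genes held them. *Ogdh* has 6 start sites in the table, of which 1 held the estrogen-related receptor letters (4.718% of all windows) and 2, which overlap, held the nuclear respiratory factor 1 letters (2.712%). The 3 copies in *Mdh2* began 189, 62 and 28 bases before its RefSeq start, and 0.919% of all windows held at least 1 copy. The windows of *Cs*, *Idh2*, *Suclg1* and *Fh1* held none of the 4 motifs, which says only that these letters were absent from those windows. These distances are to RefSeq starts, at position 130284451 for *Idh3b*, 85110833 for *Dlst* and 135778649 for *Mdh2*. The GENCODE spans given here begin further upstream for *Idh3b* and *Mdh2*, so the *Idh3b* site and the last 2 *Mdh2* copies lie inside those spans, and for *Dlst* both annotations begin at the same base.

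CPEB proteins bind the cytoplasmic polyadenylation element, spelled UUUUAU, near the end of an mRNA. The last 100 bases of the principal transcript (GENCODE M21) held this element in *Cs* and *Fh1* among the 9 genes, and in 13.843% of 19439 protein-coding genes. The capitals mark it in the final bases of both mRNAs.
Cs 3′ end: uaauaaauguUUUUAUuaacaaug
Fh1 3′ end: auaaaguuuaUUUUAUaaaagaaaa

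The element started 14 bases from the end in *Cs* and 15 bases from the end in *Fh1*. No library here measured binding or poly(A) length.

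Levels were compared between genes only per length, as CPM per kilobase of the principal transcript (RPKM). In the 12 AAV libraries *Ogdh*, the catalytic subunit of the 2-oxoglutarate dehydrogenase complex, had the highest level, with a median of 686 and a range of 618 to 772 RPKM. *Idh3b* (median 594, range 484 to 680 RPKM), *Cs* (median 554, range 475 to 622 RPKM) and *Idh3a* (median 493.1, range 442 to 548 RPKM) followed, and each overlapped its neighbours in this order. *Suclg1* at a median of 424 RPKM, *Mdh2* at 399 RPKM and *Dlst* at 349 RPKM came next and also overlapped. *Fh1* at 188 RPKM (range 164 to 220) and *Idh2* at 175 RPKM (range 143 to 260) were the lowest pair and overlapped each other, and both lay below every value of the other 7 genes. The order depended on the length used. With the combined length of all annotated exons, *Dlst* took the lowest place at a median of 101 RPKM, and *Ogdh* stayed highest at 519 RPKM.

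In the 10 untreated libraries the ranges were wider. *Idh3b* had the highest median at 610 RPKM, *Mdh2* was next at 576 RPKM with a range of 326 to 1248, and *Ogdh* stood at 476 RPKM with a range of 218 to 748. *Idh2* (median 236 RPKM) and *Fh1* (median 182 RPKM) were again the lowest pair. The plot of levels per length shows the narrow bars of the AAV cohort beside the wide ones of the untreated cohort.

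**Figure D1:**
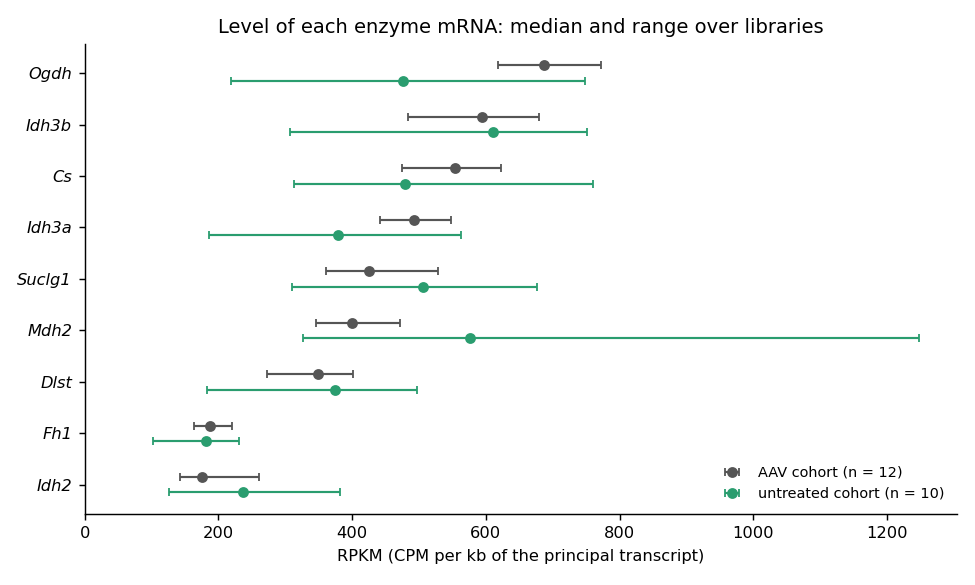
Level of each enzyme mRNA in RPKM (horizontal axis, linear), with the point at the median and the bar from the lowest to the highest library, for the 12 AAV libraries and the 10 untreated libraries. Genes are ordered by their AAV median, from *Ogdh* at 686 RPKM to *Idh2* at 175 RPKM.

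The first comparison asked whether cycle mRNAs differed between KO and WT BAT that had received the control virus or PRDM16. With either virus, 8 of the 9 genes had a KO mean below the WT mean, all but *Idh2*, and the differences were small, at most 18.3% of the WT level. Of all genes tested, 48.51% with AAV-GFP and 48.45% with AAV-PRDM16 had a log2 fold change below 0. Over the 9 genes the median log2 fold change was -0.14 with AAV-GFP and -0.22 with AAV-PRDM16, where the median of all genes tested was 0.01 in each. In edgeR's quasi-likelihood test none of the 9 passed an FDR of 0.05 in either comparison, in which 0.0529% and 0.0476% of all genes did. In bulk tissue fewer cells of a type and less RNA per cell cannot be told apart, so a level here is a share of the library's mRNA and not an amount per adipocyte.

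*Mdh2*, the malate dehydrogenase that closes the cycle by regenerating oxaloacetate, measured 626, 580 and 609 CPM in WT mice given AAV-GFP, against 541, 538 and 523 CPM in their KO counterparts. With AAV-PRDM16 it measured 596, 686 and 681 CPM in WT and 503, 551 and 583 CPM in KO. Every KO library lay below every WT library of the same virus. The log2 fold change was -0.18 ± 0.10 (SE) with AAV-GFP and -0.26 ± 0.10 with AAV-PRDM16, at adjusted p-values of 0.624 and 0.26 (edgeR). *Mdh2* has the highest GC content of the 9 genes, and after every library had been corrected for GC content and length these values became -0.08 ± 0.10 and -0.15 ± 0.10.

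*Ogdh* and *Dlst* encode the E1 and E2 subunits of the 2-oxoglutarate dehydrogenase complex, which oxidizes 2-oxoglutarate to succinyl-CoA. *Ogdh* measured 2974, 3045 and 2840 CPM in WT against 2801, 2698 and 2552 CPM in KO with AAV-GFP, and 2966, 3186 and 3111 CPM in WT against 2600, 2738 and 2826 CPM in KO with AAV-PRDM16. It was the only one of the 9 genes in which all 6 KO libraries lay below all 6 WT libraries, a pattern that 1.58% of all genes showed in this direction. *Dlst* measured 986, 1069 and 1092 CPM in WT mice given AAV-GFP, against 978, 933 and 804 CPM in their KO counterparts, so the closest pair of libraries differed by little. With AAV-PRDM16 *Dlst* measured 949, 1109 and 1090 CPM in WT and 752, 908 and 913 CPM in KO, again with no overlap, and its log2 fold change of -0.29 ± 0.12 was the lowest of the 9 genes.

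*Idh3a* and *Idh3b* encode the catalytic α and the β subunit of the NAD-dependent isocitrate dehydrogenase, which catalyses a regulated and irreversible step of the cycle. *Idh3b* measured 1004, 955 and 999.8 CPM in WT mice given AAV-GFP, against 966, 915 and 782 CPM in their KO counterparts, with 1 KO library inside the WT range. With AAV-PRDM16 it measured 990, 1034 and 1098 CPM in WT and 796, 918 and 940 CPM in KO, with no overlap. *Idh3a* measured 1100, 1215 and 1169 CPM in WT and 1241, 1062 and 1107 CPM in KO with AAV-GFP, and 1201, 1279 and 1316 CPM in WT and 1109, 1112 and 1300 CPM in KO with AAV-PRDM16. It overlapped between genotypes with either virus, at log2 fold changes of -0.03 ± 0.11 and -0.11 ± 0.11.

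*Suclg1* encodes the α subunit of succinyl-CoA ligase, the step that yields GTP or ATP. It measured 655, 661 and 770 CPM in WT mice given AAV-GFP, against 615, 634 and 588 CPM in their KO counterparts, without overlap. With AAV-PRDM16 it overlapped, at 602, 750 and 804 CPM in WT and 549, 619 and 668 CPM in KO. *Fh1*, which encodes fumarase, measured 525, 540 and 581 CPM in WT mice given AAV-PRDM16, against 447, 482 and 489 CPM in their KO counterparts, without overlap. With AAV-GFP it overlapped, at 518, 487 and 547 CPM in WT and 503, 470 and 432 CPM in KO. *Cs*, which encodes citrate synthase at the entry of acetyl-CoA, measured 1625, 1617 and 1820 CPM in WT mice given AAV-GFP, against 1611, 1544 and 1553 CPM in their KO counterparts. Its KO libraries lay just under the WT libraries there. With AAV-PRDM16 *Cs* overlapped, at 1477, 1733 and 1808 CPM in WT and 1390, 1654 and 1622 CPM in KO.

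*Idh2*, the NADP-dependent mitochondrial isocitrate dehydrogenase that supplies NADPH in the matrix, was the exception. It measured 298, 259 and 337 CPM in WT against 272, 257 and 407 CPM in KO with AAV-GFP, and 249, 320 and 337 CPM in WT against 312, 261 and 454 CPM in KO with AAV-PRDM16. Mouse 3 of each KO group was above all 6 WT libraries, and the other 4 KO libraries lay within the WT range. Its log2 fold change of 0.06 ± 0.22 with AAV-GFP became -0.18 without KO + AAV-GFP mouse 3, and that of 0.18 ± 0.22 with AAV-PRDM16 became -0.08 without KO + AAV-PRDM16 mouse 3. Those mice also had the highest summed white fat markers of their groups, 147 and 256 CPM against 15.8 to 66.5 CPM in WT, whose part in this value was not tested. On average the KO sums were mostly *Lep*, the leptin mRNA, at 109 ± 70.1 CPM (SD) over both viruses.

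**Figure D2:**
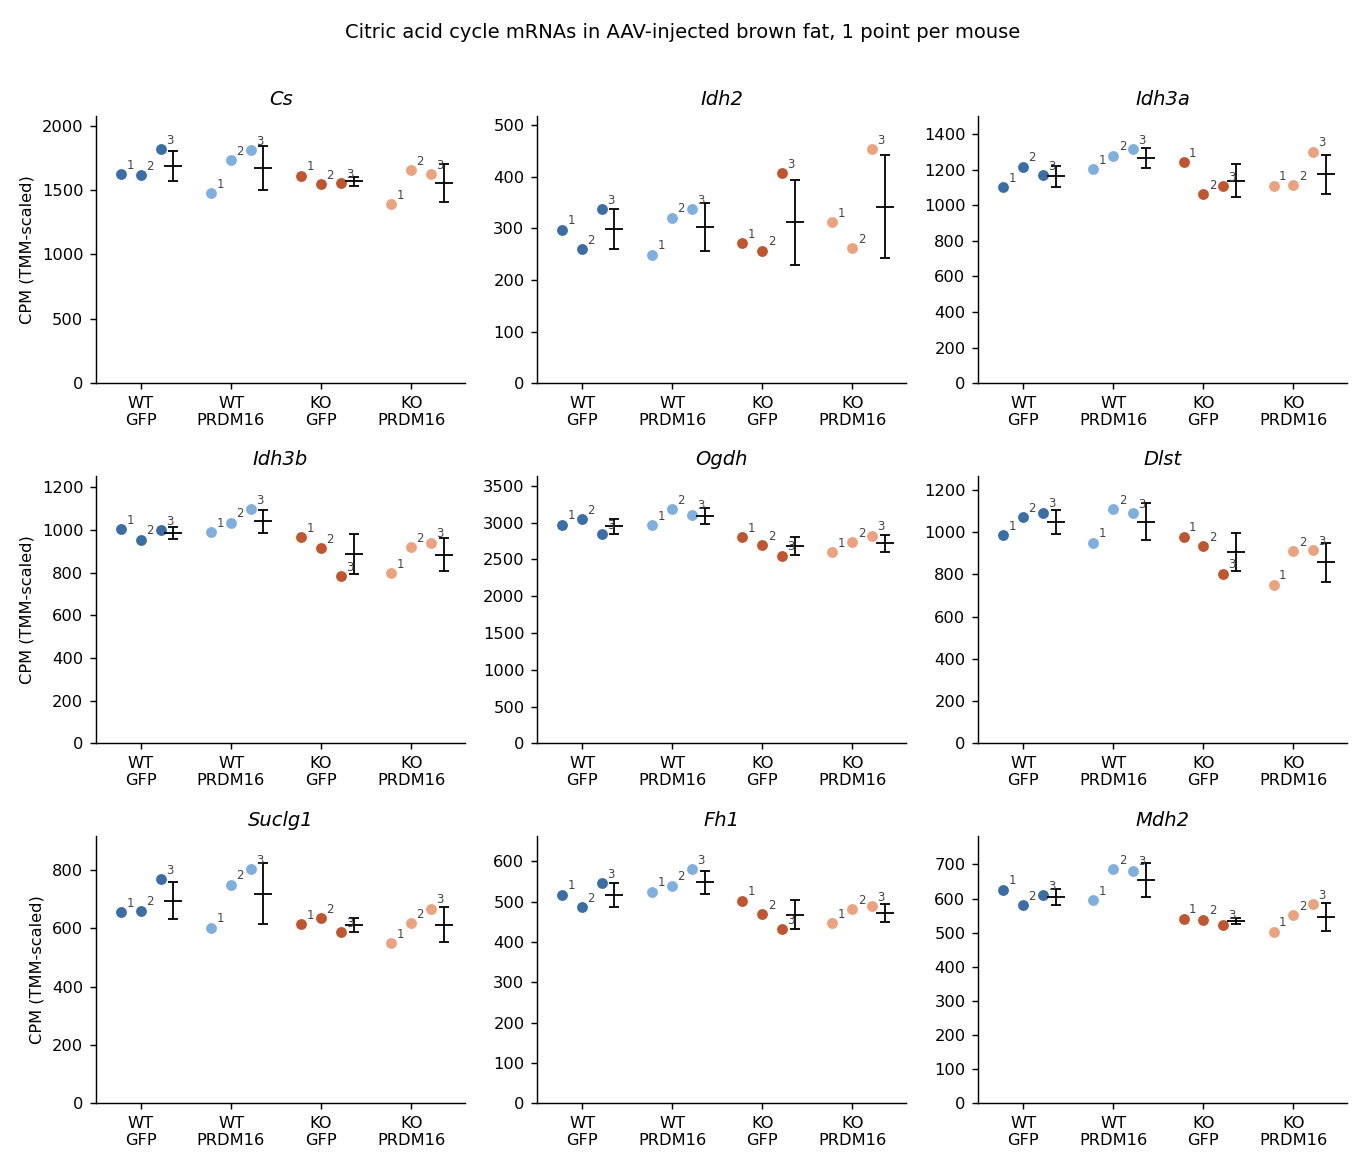
CPM of each of the 9 genes (vertical axes from 0) in the 3 mice of each AAV group, with the mouse number beside each point and the mean ± SD as a black bar. The KO points of *Ogdh* all lie under its WT points, and the *Idh2* points of KO mice 3 stand above the rest.

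Read against all genes, 5 of the 9 had no overlap between KO and WT with AAV-GFP, every KO library lying below every WT library (*Cs*, *Ogdh*, *Dlst*, *Suclg1* and *Mdh2*), where 6.88% of all genes had this pattern. With AAV-PRDM16 5 also had it (*Idh3b*, *Ogdh*, *Dlst*, *Fh1* and *Mdh2*), where 11.2% of all genes did. At an unadjusted p under 0.05, 0 genes were lower with AAV-GFP (4.2% of all genes) and 3 with AAV-PRDM16 (6.8% of all genes), namely *Dlst*, *Fh1* and *Mdh2*. The count of 3 became 0 without WT + AAV-PRDM16 mouse 2, without WT + AAV-PRDM16 mouse 3 or without KO + AAV-PRDM16 mouse 1, and 5 without KO + AAV-GFP mouse 3. Among the other tools, limma-voom with sample quality weights called *Mdh2* with AAV-PRDM16 at an adjusted p of 0.0429, where it called 2.88% of all genes, and DESeq2 called none of the 9 in either comparison.

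Averaged over both viruses, with 6 KO and 6 WT mice, the 9 genes had a median log2 fold change of -0.18, against 0.01 for all genes tested. The KO and WT means were 540 ± 26.9 and 630 ± 44.4 CPM (SD) for *Mdh2*, 881 ± 85.6 and 1049 ± 65.8 CPM for *Dlst*, and 2703 ± 109 and 3020 ± 122 CPM for *Ogdh*. The log2 fold changes were -0.22 ± 0.07 (SE) for *Mdh2*, -0.25 ± 0.08 for *Dlst* and -0.16 ± 0.07 for *Ogdh*. *Suclg1* at -0.21 ± 0.09, *Idh3b* at -0.19 ± 0.08 and *Fh1* at -0.18 ± 0.07 were of like size. *Cs* at -0.10 ± 0.08, *Idh3a* at -0.07 ± 0.07 and *Idh2* at 0.12 ± 0.16 had intervals that included 0.

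No member passed an FDR of 0.05 in edgeR, where 2.18% of all genes did, and the smallest adjusted p was 0.103 for *Mdh2*. At an unadjusted p under 0.05, 6 of the 9 were lower (*Idh3b*, *Ogdh*, *Dlst*, *Suclg1*, *Fh1* and *Mdh2*), beside 8.76% of all genes. This average uses the same 12 libraries as the comparisons within each virus and adds no animals. The 6 became 2 without WT + AAV-PRDM16 mouse 3, 2 without KO + AAV-PRDM16 mouse 1, and 3 (*Ogdh*, *Dlst* and *Fh1*) after correction of every library for GC content and transcript length. That correction moved *Mdh2*, the gene with the smallest adjusted p, to -0.12 ± 0.07 with an adjusted p of 0.446 (edgeR), and *Idh2* to 0.21 ± 0.16, while *Dlst* stayed at -0.25 ± 0.08. DESeq2 called *Ogdh*, *Dlst* and *Mdh2* at adjusted p-values of 0.0441, 0.0424 and 0.016, where it called 9.93% of the 15947 genes to which it gave an adjusted p. Limma-voom called *Dlst* and *Mdh2* at 0.0408 and 0.029, where it called 6.71% of all genes.

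**Figure D3:**
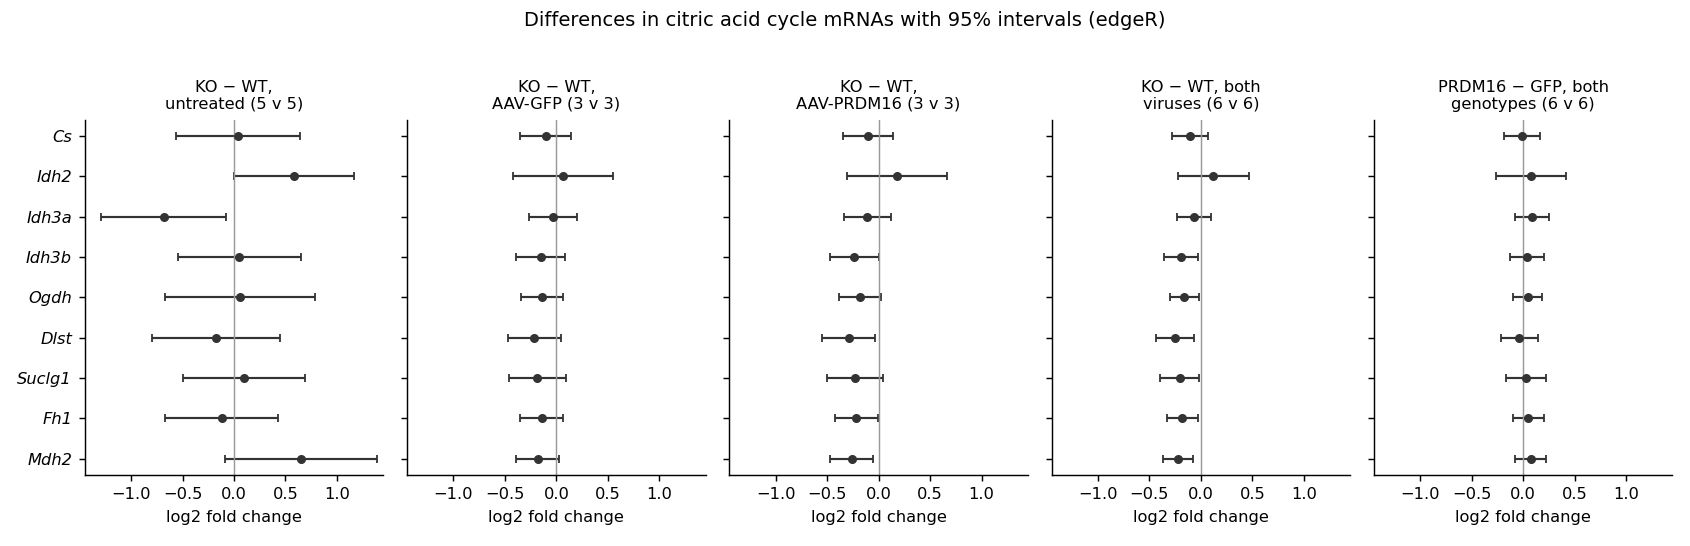
Log2 fold change (horizontal axes, one scale) of each gene with its 95% interval from edgeR in 5 comparisons. In KO minus WT over both viruses 6 intervals lie below 0, in PRDM16 minus GFP all 9 include 0, and in the untreated cohort the intervals are widest.

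The next comparison asked whether ectopic PRDM16 moved these mRNAs. With AAV-PRDM16, *Prdm16* itself measured 122, 119 and 45.9 CPM in WT mice and 69.2, 128 and 73.6 CPM in KO mice. All of these were above the 23.9 to 40.2 CPM of the 6 AAV-GFP libraries, WT + AAV-PRDM16 mouse 3 (45.9 CPM) only by little. The log2 fold change of the 9 genes, AAV-PRDM16 minus AAV-GFP, ran from -0.01 for *Cs* to 0.12 for *Idh3a* in WT, with a median of 0.06, and from -0.08 for *Dlst* to 0.14 for *Idh2* in KO, with a median of 0.01. In edgeR 0 of the 9 passed an FDR of 0.05 in WT, in KO or averaged over both genotypes, where 0%, 0% and 0.037% of all genes did, and 0 passed at an unadjusted p under 0.05. DESeq2 and limma-voom also called 0. Every gene overlapped between the 2 viruses within each genotype, where 14.2% of all genes in WT and 9.43% in KO did not overlap, and over both genotypes, where 0.561% did not.

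The 95% intervals show which sizes of change these 12 libraries could not separate from 0. Averaged over both genotypes, the interval of the log2 fold change ran from -0.10 to 0.19 for *Ogdh*, from -0.08 to 0.22 for *Mdh2* and from -0.22 to 0.14 for *Dlst*. It was widest for *Idh2*, from -0.26 to 0.42.

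KO + AAV-PRDM16 was also set against WT + AAV-GFP, the comparison that asks how treated KO tissue stood beside control WT tissue. It shares both its groups with the comparisons already given. The median log2 fold change of the 9 genes was -0.13, and 7 had a KO mean below the WT mean, where 52.64% of all genes had a log2 fold change below 0. *Dlst*, at 858 ± 92.0 CPM against 1049 ± 55.9 CPM (SD), had the lowest value, -0.29 ± 0.12 (SE), with an adjusted p of 0.582 (edgeR). It was the only gene at an unadjusted p under 0.05, beside 4.42% of all genes, and this ended without WT + AAV-GFP mouse 2, without WT + AAV-GFP mouse 3 or without KO + AAV-PRDM16 mouse 1. *Idh3b*, *Ogdh* and *Dlst* had no overlap, beside 7.09% of all genes, and none of the 9 was called by edgeR, where 0.00529% of all genes was, or by DESeq2 or limma-voom. The interaction of genotype and virus was within -0.08 to 0.12 on the log2 scale for all 9 genes, and edgeR called 0 of the 9, and 0% of all genes, with 0 of the 9 at an unadjusted p under 0.05.

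In the untreated cohort the libraries labelled KO were compared with those labelled WT at 5 against 5. Here 3 genes stood apart from the other 6, and in different directions. *Idh3a* measured 1352, 1175, 843, 919 and 1303 CPM in WT and 904, 529, 662, 939 and 446 CPM in KO. Its 3 lowest KO libraries lay below every WT library, while KO mice 1 and 4 were within the WT range. The log2 fold change was -0.68 ± 0.28 (SE), at an adjusted p of 0.305 (edgeR).

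*Mdh2* measured 528, 475, 864, 834 and 842 CPM in WT and 709, 598, 1322, 1116 and 1817 CPM in KO, so KO mice 3, 4 and 5 were above every WT library. *Idh2* measured 243, 219, 414, 420 and 323 CPM in WT and 410, 464, 506, 384 and 665 CPM in KO, so KO mice 2, 3 and 5 were above every WT library. WT mice 1 and 2 had the lowest values of the cohort in both genes. The log2 fold changes were 0.65 ± 0.34 for *Mdh2* and 0.58 ± 0.27 for *Idh2*, at adjusted p-values of 0.341 and 0.315 (edgeR).

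The remaining genes differed more between mice than between genotypes. *Cs* ran from 1177 to 1601 CPM in WT and from 915 to 2222 CPM in KO. *Ogdh* ran from 1333 to 2502 CPM in WT and from 900.2 to 3086 CPM in KO, where mouse 2 was lowest and mouse 5 highest. *Idh3b* ran from 750 to 1019 CPM in WT and from 496 to 1215 CPM in KO, and *Dlst* from 872 to 1375 CPM in WT and from 507 to 1304 CPM in KO. KO mouse 2 was the lowest of all 10 libraries in each of these 4 genes. *Suclg1* ran from 631 to 818 CPM in WT and from 470 to 1028 CPM in KO, and *Fh1* from 415 to 607 CPM in WT and from 269 to 576 CPM in KO. The log2 fold changes of *Cs*, *Idh3b*, *Ogdh*, *Dlst*, *Suclg1* and *Fh1* lay between -0.18 and 0.09, with 95% intervals that reached -0.80 on one side and 0.79 on the other.

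None of the 9 passed an FDR of 0.05 in edgeR, DESeq2 or limma-voom, and in edgeR 0% of all genes did. *Idh3a* was the only one of the 9 at an unadjusted p under 0.05 in edgeR, beside 10.9% of all genes that were lower by that rule. It was no longer so without WT mouse 1, 2 or 5 or without KO mouse 2, 3 or 5, where its log2 fold change ran from -0.67 to -0.56. Without KO mouse 1, whose *Cpeb2* was at the WT level, the log2 fold changes were -0.80 for *Idh3a*, 0.78 for *Mdh2* and 0.64 for *Idh2*, at adjusted p-values of 0.175, 0.222 and 0.224 (edgeR). All 9 genes overlapped between the genotypes, where 1.4% of all genes did not.

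**Figure D4:**
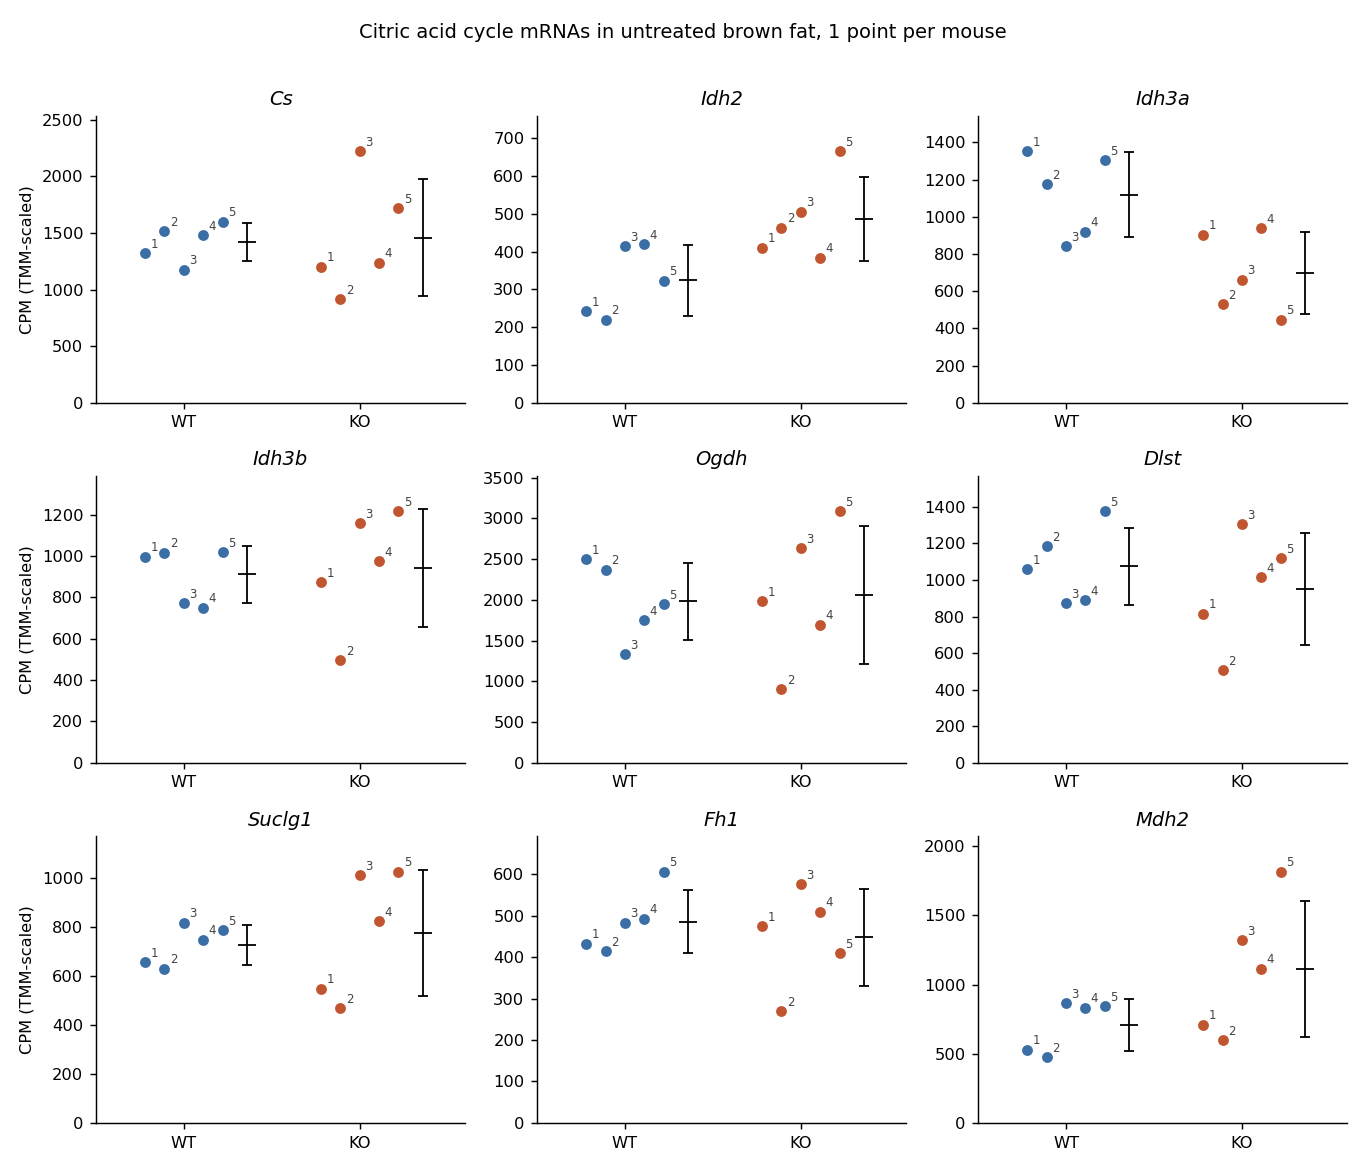
CPM of each of the 9 genes (vertical axes from 0) in the 5 untreated mice labelled WT and the 5 labelled KO, with the mouse number beside each point and the mean ± SD as a black bar. KO mice 3 and 5 are low in *Idh3a* and high in *Mdh2*, and KO mouse 2 is low in most genes.

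The 3 genes that stood apart are also those at the ends of the range of GC content among the 9. *Idh3a* has the lowest GC content, 44.9% of its principal transcript, and *Idh2* and *Mdh2* have the highest, each 55.4%. Each library's log2 CPM was regressed on GC content and length over all genes, as a deviation from the mean library. The slope on GC content, in log2 units per SD of GC content, was -0.297 to -0.021 in the libraries labelled WT and -0.095, 0.082, 0.227, 0.099 and 0.589 in KO mice 1 to 5. WT mice 1 and 2, the lowest in *Mdh2* and *Idh2*, also stood apart in the slope on length. It was 0.295 and 0.374 in them and -0.27 to 0.099 in the other untreated libraries. With the trends in GC content and in length removed together, the log2 fold change was -0.35 for *Idh3a*, 0.09 for *Mdh2* and 0.13 for *Idh2*. The adjusted p-values were 0.745, 0.917 and 0.853 (edgeR). The part of GC content in these differences cannot be told apart from genotype here, since the slope itself differed between the groups.

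The ratio of *Idh3a* to *Idh3b*, 2 subunits of one enzyme, was looked at after the values of both had been seen, and is given without a test. It was 1.36, 1.16, 1.09, 1.23 and 1.28 in untreated WT mice and 1.04, 1.07, 0.572, 0.962 and 0.367 in untreated KO mice, so every KO value lay below every WT value. In the 12 AAV libraries it ran from 1.10 to 1.42, with the genotypes overlapping. There the GC slope was 0.013 to 0.051 in WT and -0.071 to 0.013 in KO, a narrower spread in which the ranges of the genotypes met at 0.013. Every WT slope was thus at or above every KO slope. In the AAV cohort too, the part of GC content in the differences between KO and WT cannot be told apart from genotype.

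**Figure D5:**
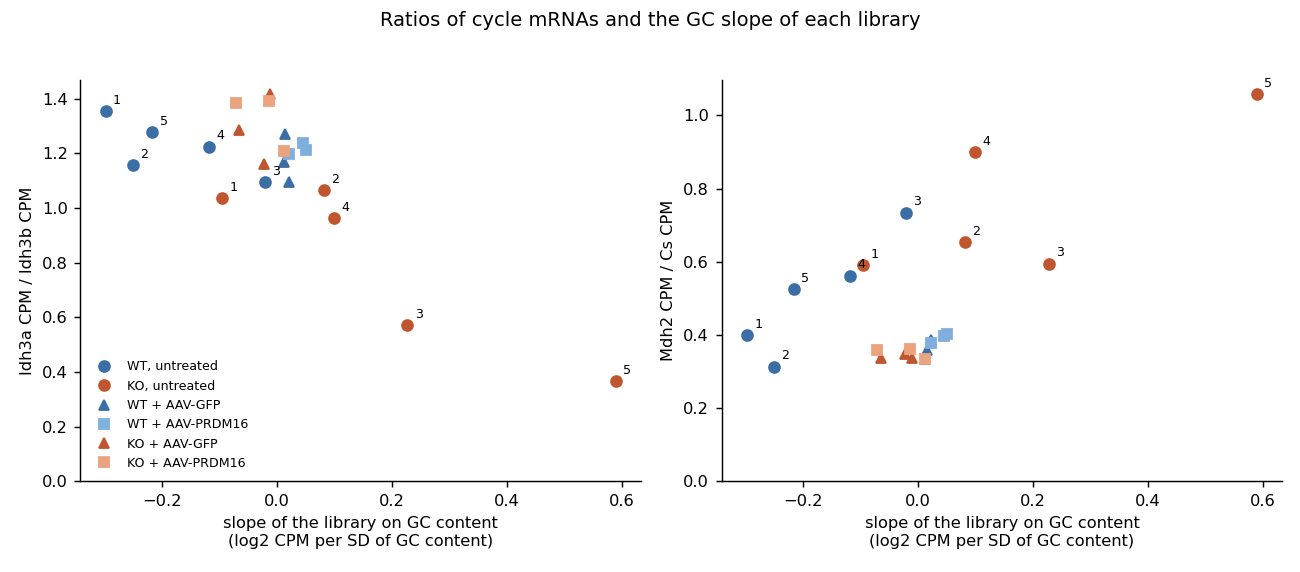
Ratio of *Idh3a* to *Idh3b* CPM (left) and of *Mdh2* to *Cs* CPM (right) against the slope of each library on GC content, in log2 CPM per SD of GC content, with circles for untreated mice (numbered), triangles for AAV-GFP, squares for AAV-PRDM16, blue for WT and orange for KO. KO mouse 5 has the largest slope, 0.589, with the lowest *Idh3a* to *Idh3b* ratio, 0.367, and the highest *Mdh2* to *Cs* ratio, 1.06.

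Sex-linked transcripts and muscle markers also moved among the untreated libraries. Only KO mouse 2 and WT mice 1, 2 and 4 had Y-linked transcripts, and over those 4 libraries the median log2 fold change of the 9 genes was -0.67, against 0.05 over all 10. That fit has 1 KO library, whose spread is assumed to equal that of the WT libraries, and in it *Mdh2* was at 0.03 and *Idh3a* at -1.05. In a fit of all 10 libraries with a term for whether Y-linked transcripts were found, *Idh3a* was at -0.74, *Mdh2* at 0.34 and *Idh2* at 0.50. KO mouse 2 had the lowest sum of the 9 genes, 5147 CPM against 7575 to 11500 CPM in the other 9 libraries, and the highest muscle marker sum, 7948 CPM. KO mouse 1 had a muscle marker sum of 7076 CPM and 7920 CPM of the 9 genes. Beyond these fits the part of sex in these values was not tested, and the part of muscle RNA was not tested.

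Across libraries most of the 9 genes went up and down together. The Pearson correlation of a gene's log2 CPM with the mean of the other 8 was 0.77 to 0.93 for *Cs*, *Idh3b*, *Ogdh*, *Dlst*, *Suclg1*, *Fh1* and *Mdh2* over the 12 AAV libraries, and 0.53 to 0.88 for these genes over the 10 untreated libraries. *Idh2* stood outside in both cohorts, at 0.02 and 0.01. *Idh3a* was at 0.70 in the AAV libraries and at -0.16 in the untreated libraries. These values describe the libraries, which share depth, scaling and base composition across genes.

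The other genes of the cycle were read from a list of 9, which holds aconitase and the remaining subunits. Like the other lists, it was chosen with earlier results of these data known. All 9 had a KO mean below the WT mean with AAV-GFP, with AAV-PRDM16 and averaged over both, with an averaged median log2 fold change of -0.15. Of all genes tested, 48.51%, 48.45% and 48.38% had a log2 fold change below 0 in these comparisons. Of the 9, *Sdhb* alone passed the test in the average, where 2.18% of all genes did. It encodes the iron-sulfur subunit of succinate dehydrogenase and stood at 391 ± 25.9 CPM in KO and 484 ± 36.7 CPM in WT. Its log2 fold change was -0.31 ± 0.07, at an adjusted p of 0.0488 (edgeR), and it was no longer called under 15 of 19 alternatives, and all 19 together gave adjusted p-values of 0.00113 to 0.2. With the GC and length trend taken out its log2 fold change was -0.19 ± 0.07. In the untreated cohort the same gene had a log2 fold change of 0.80 ± 0.39 (adjusted p = 0.324, edgeR).

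The partners that complete the complexes of the 9 genes belong to the same list of other cycle genes, and so were already counted there. They were looked at singly after their values had been seen. Averaged over both viruses they had log2 fold changes of -0.15 ± 0.08 for *Idh3g*, the γ subunit beside *Idh3a* and *Idh3b*, and -0.08 ± 0.10 for *Dld*, the E3 subunit beside *Ogdh* and *Dlst*. *Sucla2* and *Suclg2*, the ATP- and GTP-forming β subunits beside *Suclg1*, were at -0.14 ± 0.10 and -0.17 ± 0.08. In the untreated cohort the partners were spread, at 0.36 ± 0.33 for *Idh3g*, -1.01 ± 0.36 for *Dld*, -0.82 ± 0.31 for *Sucla2* and -0.53 ± 0.30 for *Suclg2*. None of these passed an FDR of 0.05 in edgeR.

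Lipoic acid is attached to *Dlst* and to the E2 subunit of pyruvate dehydrogenase, and dedicated factors assemble succinate dehydrogenase. Of 7 genes for these tasks, all 7 had a KO mean below the WT mean with each virus, at an averaged median of -0.24. Of all genes tested, 48.51% with AAV-GFP and 48.45% with AAV-PRDM16 had a log2 fold change below 0. Of the 7, *Sdhaf4*, an assembly factor of succinate dehydrogenase, alone passed the test in the average, where 2.18% of all genes did. It stood at 3.60 ± 0.64 CPM in KO and 5.46 ± 0.98 CPM in WT, a log2 fold change of -0.60 ± 0.13 with an adjusted p of 0.0342 (edgeR). Its call was lost under 11 of 19 alternatives, and all 19 together gave adjusted p-values of 0.000573 to 0.0934. In the untreated cohort *Sdhaf4* had a log2 fold change of 0.16 ± 0.43 (adjusted p = 0.851, edgeR).

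Of 10 listed brown fat genes, 2 passed an FDR of 0.05 in the same comparison, where 2.18% of all genes did, and of all 10 the KO mean was below the WT mean in 8, at a median log2 fold change of -0.30. Of all genes tested, 48.38% had a log2 fold change below 0 there. *Cox8b*, a respiratory chain subunit typical of brown fat and muscle, fell from 142 ± 19.7 CPM in WT to 90.2 ± 19.1 CPM in KO (log2 fold change -0.66 ± 0.12, adjusted p = 0.0189, edgeR). *Cidea*, a lipid droplet protein of brown adipocytes, fell from 1520 ± 176 to 1155 ± 72.9 CPM (-0.39 ± 0.08, adjusted p = 0.0378, edgeR). The call of *Cox8b* was lost under 3 and that of *Cidea* under 11 of 19 alternatives, and without the GC and length trend *Cidea* was at -0.26 ± 0.08. In the untreated cohort both had the other sign, at 0.84 ± 0.74 for *Cox8b* and 0.27 ± 0.33 for *Cidea* (adjusted p = 0.53 and 0.662, edgeR). The 10 genes summed to 3945 to 7309 CPM in the WT and 4142 to 5138 CPM in the KO libraries of the AAV cohort, with none at 0. The muscle list summed to 0.421 to 29.4 CPM in WT and 0.620 to 110.8 CPM in KO there, with 0 of its 11 tested genes called.

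Markers of further cell types were read in the same 12 libraries, and none of them passed an FDR of 0.05 in edgeR over both viruses. The 8 immune markers summed to 6.83 to 35.8 CPM in WT and 9.44 to 82.6 CPM in KO, with a log2 fold change above 0 in 7 of 8 and a median of 0.45. *Adgre1* and *Cd68*, both macrophage markers, were higher at an unadjusted p under 0.05, as were 9.54% of all genes. The 4 endothelial markers, none at 0, summed to 319 to 421 CPM in WT and 311 to 492 CPM in KO, and *Pecam1*, *Cdh5* and *Tek* were higher by the same rule, with a median over the 4 of 0.38. *Kdr*, the remaining marker, was not, at -0.05 ± 0.15. Of the white fat markers, *Lep*, which encodes leptin, was higher by that rule at 109 ± 70.1 CPM in KO and 29.0 ± 15.5 CPM in WT, and the list of 5, with *Hoxc9* at 0 in 9 of the 12 libraries, summed to 15.8 to 66.5 CPM in WT and 53.4 to 256 CPM in KO. *Retn*, *Nnat* and *Hoxc8* did not share this, at log2 fold changes of -0.23 ± 0.24, 0.35 ± 0.28 and -0.23 ± 0.24. Their KO means were 2.70, 7.52 and 3.80 CPM, so the KO sums were on average mostly *Lep*. The 5 general adipocyte markers, none at 0, summed to 6087 to 7191 CPM in WT and 5845 to 6514 CPM in KO, where *Plin1* alone was lower at an unadjusted p under 0.05. These marker genes were named after their values had been seen. The part of these cell types, of brown fat content and of muscle in the values of the cycle genes was not tested.

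Around the cycle, the remaining lists held no call in this average. Of 11 genes for the entry of pyruvate, 0 passed an FDR of 0.05 in edgeR, and 3 (*Pdk2*, *Pdk4* and *Pdp2*) were lower at an unadjusted p under 0.05, as were 8.76% of all genes, and *Pdk4*, *Pdha1* and *Pdhb* had log2 fold changes of -0.41 ± 0.12, -0.14 ± 0.16 and -0.13 ± 0.19. *Pdk4* encodes a kinase that switches pyruvate dehydrogenase off, and *Pdha1* and *Pdhb* encode the E1 subunits of that enzyme. Of 7 genes for filling and draining the cycle, 0 passed, and 1 was lower (*Pck1*) and 1 higher (*Pck2*) at an unadjusted p under 0.05, with *Pck1*, which draws oxaloacetate off, at -0.28 ± 0.09, *Pcx*, which makes oxaloacetate from pyruvate, at -0.01 ± 0.11, and *Glud1* at -0.05 ± 0.07. Of 7 cytosolic or related isoenzymes, 0 passed by either rule, with *Acly* at 0.16 ± 0.60, *Me1* at 0.20 ± 0.42 and *Mdh1* at -0.13 ± 0.11. Of 5 carriers of cycle intermediates, 0 passed and 2 (*Slc25a12* and *Slc25a13*) were higher at an unadjusted p under 0.05, beside the 9.54% of all genes. Both were low, with means over the AAV libraries of 2.6 CPM for *Slc25a12* and 0.145 CPM for *Slc25a13*. *Slc25a1*, the citrate carrier, was at -0.32 ± 0.38, *Slc25a11* at -0.17 ± 0.09 and *Slc25a10* at 0.56 ± 0.27. Of 8 regulators of mitochondrial gene expression, 0 passed and 1 (*Esrra*) was lower at an unadjusted p under 0.05, with *Esrra* at -0.27 ± 0.09, *Gabpa* at 0.05 ± 0.13 and *Ppargc1b* at -0.12 ± 0.10. In the untreated cohort no gene of any of these lists passed an FDR of 0.05 (edgeR).

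The genes whose pattern was most like the mean of the 9 were found by the smaller of 2 Pearson correlations, over the 10 untreated and the 12 AAV libraries, among 17189 other genes. They were *Gcsh*, *Echs1*, *Ndufv1*, *Hadh*, *Atp5b*, *Acad8*, *Mrpl16*, *Cryz*, *Atp5c1* and *Ldhb*, with smaller correlations of 0.93 down to 0.87. *Gcsh* encodes the lipoyl carrier of the glycine cleavage system, *Echs1*, *Hadh* and *Acad8* enzymes of fatty and branched-chain acyl-CoA oxidation, *Ndufv1* a subunit of complex I, and *Atp5b* and *Atp5c1* subunits of ATP synthase. The correlations are a description over libraries that share depth and scaling.

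Annotation limits touched 4 of the 9 genes. *Idh3b* overlaps *Nop56* and *Fh1* overlaps *Kmo* on the opposite strand, *Cs* overlaps Gm23182 and *Idh2* overlaps Gm45203 on the same strand. *Nop56* had 7.29 to 19.0 CPM and *Kmo* at most 0.764 CPM, small beside their partners, and *Csl*, a gene similar to *Cs*, had at most 0.527 CPM.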

How the data were processed

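RNA of BAT from 1 mouse per library was sequenced after a SureSelect XT HS2 mRNA kit. The deposited values are read counts per gene, not normalized. The submitters' processing notes name bcl2fastq 2.20, Trimmomatic 0.36, HISAT2 and the GRCm38.p6 build. The counting tool, its strand setting and its handling of duplicates and molecular barcodes are not given in the sources used here, so reads of overlapping genes may have been split or mixed.

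Of 55487 identifiers, 55227 matched GENCODE M21. Each cohort was fitted on its own with edgeR 4.0.16 (R 4.3.3; TMM scaling, filterByExpr, quasi-likelihood test, one term per group), with Benjamini-Hochberg adjustment over all genes tested and an FDR threshold of 0.05. The SE is the log2 fold change divided by the square root of F. Log2 CPM values used a prior count of 2. Total counts were 55320927 to 162721202 per library. DESeq2 1.42.0, limma 3.58.1 (voom with sample quality weights), other scalings, no filter, a replicate block, the compared groups alone and leaving out each mouse were alternatives, and a per-library correction for GC content and length, and exon-union lengths, were added after the data had been seen. The models were tested on simulated data.

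The 9 genes and the gene lists were chosen with earlier results of these data known. The text names all 9, and from each list the genes called, or else up to 3 with the highest mean CPM. Replicate numbers were not taken to pair the mice, since the labels name no pairs. Deviations of same-numbered libraries correlated at -0.292 to 0.111 in the untreated and at -0.091 to 0.154 in the AAV cohort. These values cannot show whether same-numbered mice shared a litter or a batch. No libraries were identical within sampling noise. Each library is 1 mouse, and p-values rest on the spread between mice.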

Additional observations from a re-analysis of the deposited data

How the results depend on the processing

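No alternative reversed a called value. Of 1669 values of single genes under alternatives, 108 had another sign than the reported value, none of them called, and 40 lost a call, all for *Sdhb*, *Sdhaf4*, *Cidea* or *Cox8b*. The count of the 9 genes below an FDR of 0.05 was 0 in edgeR for each comparison, and rose to 3 with DESeq2 and 2 with limma-voom for KO minus WT over both viruses and to 1 with limma-voom for KO minus WT with AAV-PRDM16. These tools also called more of all genes in the first of these comparisons, 1584 and 1269 against 412 in edgeR, with 250 without the filter on low counts and 176 with the GC and length trend removed. The median log2 fold change over the 9 genes moved beyond the spread between mice once, to -0.67 in the untreated cohort when only libraries with Y-linked transcripts were kept, a fit with 1 KO library assumed to vary like the WT libraries. Leaving out each mouse in turn gave medians of -0.06 (without KO mouse 5) to 0.24 (without KO mouse 2) in the untreated cohort, -0.18 to -0.11 with AAV-GFP, -0.25 to -0.16 with AAV-PRDM16 and -0.21 to -0.16 over both viruses. For AAV-PRDM16 minus AAV-GFP it gave 0.04 to 0.12 in WT, -0.04 to 0.07 in KO and 0.01 to 0.07 over both genotypes. It gave -0.17 to -0.09 for KO + AAV-PRDM16 minus WT + AAV-GFP and -0.12 to -0.01 for the interaction, and it never brought 1 of the 9 genes below an FDR of 0.05. In edgeR *Idh3a* in the untreated cohort no longer stood at an unadjusted p under 0.05 without WT mouse 1, 2 or 5 or KO mouse 2, 3 or 5, or with the GC and length trend removed. With the replicate number as a block, 0 of the 9 genes were called in any comparison, and calls over all genes went from 412 to 344 for KO minus WT over both viruses, from 10 to 1 with AAV-GFP and from 9 to 5 with AAV-PRDM16. Each of the 9 genes had at least 18225 counts in every library. The SEs of their log2 fold changes were 0.25 to 0.34 in the untreated cohort, 0.09 to 0.22 within each virus and 0.07 to 0.16 over both viruses.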
